A study of Mus musculus with 24 samples.

Results

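The 10 genes described here are immunoglobulin constant genes and genes of plasma cells, out of 51138 in the count table. They are the heavy chain constant genes Ighm, Ighg1, Ighg2b, Ighg2c and Igha, the kappa light chain constant gene Igkc, the joining chain gene Jchain, and Mzb1, Prdm1 and Tnfrsf17. They are given by symbol, with no threshold on a measured value, and all 10 were among the 30564 genes tested. Plasma cells are the antibody-secreting end stage of the B lineage, and the constant region of the heavy chain sets the class of the antibody they make. A B cell starts with IgM and can switch to IgG, IgE or IgA by deleting the constant genes in between, while its light chain stays kappa or lambda. Constant gene transcripts also come from B cells that carry antibody on their surface, and unswitched cells can transcribe a constant gene before they switch to it.

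RNA was sequenced from subcutaneous implants 2 weeks after implantation, in 24 samples that form 6 groups of 4 biological replicates. All hosts were Foxp3-DTR/eGFP mice of both sexes, 8 to 9 weeks old, which carry the diphtheria toxin receptor and a green fluorescent protein under Foxp3, the gene of regulatory T cells (Treg). Each mouse held 2 constructs of the same group. The study asked how priming of bone marrow stromal cells (MSC), and the loss of Treg, changed the tissue that forms around a bone substitute. BCP constructs were 40 mg of biphasic calcium phosphate granules without cells, and BCP+MSC constructs carried passage 2 MSC from wild-type C57BL/6J mice. For BCP+MSC+Treg the MSC were cocultured for 36 h before implantation with activated Treg sorted from spleens of Foxp3-DTR/eGFP mice, and for BCP+MSC+RvE1 they were primed with 10 nM resolvin E1 (RvE1), a lipid mediator of the resolution of inflammation. For (dep)BCP+MSC, hosts with BCP+MSC constructs were given diphtheria toxin at 50 µg/kg intraperitoneally on the first 2 days and on days 4, 6, 8 and 10. For (dep)BCP+MSC+RvE1inj they also received 1 µM RvE1 in 50 µL at the implant site daily. The toxin acts on Foxp3+ cells of the whole host, and the toxin-treated groups were a separate experiment, so toxin and experiment cannot be told apart. The study reported by flow cytometry a reduction of CD4+CD25+FOXP3+ cells in lymph nodes and spleen of toxin-treated mice. In the implants Foxp3 RNA was low, with a median of 0.934 CPM in (dep)BCP+MSC and 0.956 CPM in BCP+MSC. The difference was not detected (log2 fold change 0.04 ± 0.51, edgeR adjusted p = 0.989). Implant RNA is another tissue and measure and does not test that depletion, and "(dep)" is used here only as the name of the groups.

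The mouse heavy chain constant genes lie side by side on chromosome 12, on the minus strand. In GRCm38 coordinates Ighm spans 113418558 to 113422730, Ighg1 113325240 to 113330523, Ighg2b 113302965 to 113307933, Ighg2c 113285325 to 113288932 and Igha 113254830 to 113260236. The IgG subclass genes are close relatives, and the results turn on whether their reads can be told apart. The first 60 coding bases of their first constant exon, from the GENCODE M21 transcripts of GRCm38, are printed 5′ to 3′ on the minus strand, with the bases in which a gene differs from Ighg1 in capitals.
Ighg1, chr12:113330464-113330523: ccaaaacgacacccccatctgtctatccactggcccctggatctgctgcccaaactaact
Ighg2b, chr12:113307874-113307933: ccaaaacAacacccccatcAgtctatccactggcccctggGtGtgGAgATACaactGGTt
Ighg2c, chr12:113288873-113288932: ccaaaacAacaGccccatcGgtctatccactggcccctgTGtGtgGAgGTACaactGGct
Ighg3, chr12:113361173-113361232: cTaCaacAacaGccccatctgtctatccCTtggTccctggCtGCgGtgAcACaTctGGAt
Against Ighg1, these stretches differ at 13 bases in Ighg2b, 14 in Ighg2c and 18 in Ighg3. Over the whole first constant exon, 88.3% of bases match Ighg1 in Ighg2b, 88.0% in Ighg2c and 79.0% in Ighg3. The hinge, the flexible link whose cysteines hold the heavy chains together, sets them further apart and is printed the same way with cysteine codons in capitals.
Ighg1, chr12:113329844-113329882: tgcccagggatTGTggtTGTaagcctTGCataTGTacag
Ighg2b, chr12:113307261-113307326: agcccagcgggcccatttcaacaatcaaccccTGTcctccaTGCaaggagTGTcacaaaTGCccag
Ighg2c, chr12:113288263-113288325: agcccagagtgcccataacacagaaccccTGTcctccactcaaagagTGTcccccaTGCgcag
Ighg3, chr12:113360529-113360576: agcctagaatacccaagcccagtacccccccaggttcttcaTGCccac
The hinge exon has 39 bases and 4 cysteine codons in Ighg1, 66 and 4 in Ighg2b, 63 and 3 in Ighg2c, and 48 and 1 in Ighg3. Ighg2b and Ighg2c shared 70 stretches of 50 bases, the longest run being 78 bases, and Ighg1 shared 10 such stretches with Ighg2b and 0 with Ighg2c. Ighg3 shared 39 with Ighg2b, with a longest run of 88 bases, 10 with Ighg1 and 0 with Ighg2c. A read inside such a shared stretch cannot be assigned to 1 gene, so counts of Ighg2b are less certain where Ighg2c or Ighg3 is present.

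Total counts per library ran from 8482701 to 144417743, and 7 libraries had under 20000000 counts. Immunoglobulin genes took 0.0382% to 1.39% of the counts of a library. A limit of 3 counts stood for 0.0208 CPM in the deepest and 0.354 CPM in the shallowest library, and such limits and the intervals below cover counting error only. These are bulk samples, so fewer cells of a type and less RNA per cell cannot be told apart. CPM are counts relative to the library total after TMM scaling, log2 fold changes are given ± standard error, and p-values are from edgeR's quasi-likelihood test unless an exact permutation test is named. A gene is called past the threshold where its unadjusted p is under 0.05 and its log2 fold change is over 1 in size. Adjusted p-values are over all genes tested. By Xist and Y-linked transcripts, females were 1 of 4 mice in BCP, 3 of 4 in BCP+MSC, 0 of 4 in BCP+MSC+RvE1, 1 of 4 in BCP+MSC+Treg, 2 of 4 in (dep)BCP+MSC and 0 of 4 in (dep)BCP+MSC+RvE1inj, so sex moves with several comparisons and its part in them was not separated beyond a fit with sex as a covariate.

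Antibody transcripts were present in every library, at levels that varied more between mice of 1 group than those of most other genes. Outside the heavy chain locus, in GRCm38, Igkc is on chromosome 6 (70726435 to 70726966), Jchain on chromosome 5 (88519809 to 88527891), Mzb1 on chromosome 18 (35647266 to 35649367), Prdm1 on chromosome 10 (44437177 to 44528501) and Tnfrsf17 on chromosome 16 (11313812 to 11320074). Per kilobase of exon, the median level over the 24 libraries was highest for Igkc (729 CPM per kb) and Ighm (344), followed by Igha (44.1), Jchain (39.2), Ighg1 (21.7), Mzb1 (10.4), Ighg2c (4.26), Ighg2b (3.26), Tnfrsf17 (1.87) and Prdm1 (1.69). The highest library exceeded the lowest 809-fold for Ighg1, 108-fold for Ighg2c, 95.3-fold for Tnfrsf17, 79.0-fold for Mzb1, 72.5-fold for Igkc, 70.3-fold for Ighg2b, 45.4-fold for Ighm, 43.4-fold for Jchain and 29.1-fold for Igha. Prdm1, which encodes the transcription factor Blimp-1 of plasma cells and is also made by other immune cells, stood apart with a 3.29-fold range, from 4.67 to 15.4 CPM. The SD of log2 CPM within groups put Ighg1 at the 99.3rd percentile of all tested genes, Ighm at the 98.4th, Igkc at the 98.0th, Mzb1 at the 97.4th and Jchain at the 97.1st. Prdm1 was at the 25.5th percentile, and the median SD of all tested genes was 0.67. The (dep)BCP+MSC+RvE1inj replicate 1 library held the highest level of 6 of the 10 genes.

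**Figure D1:**
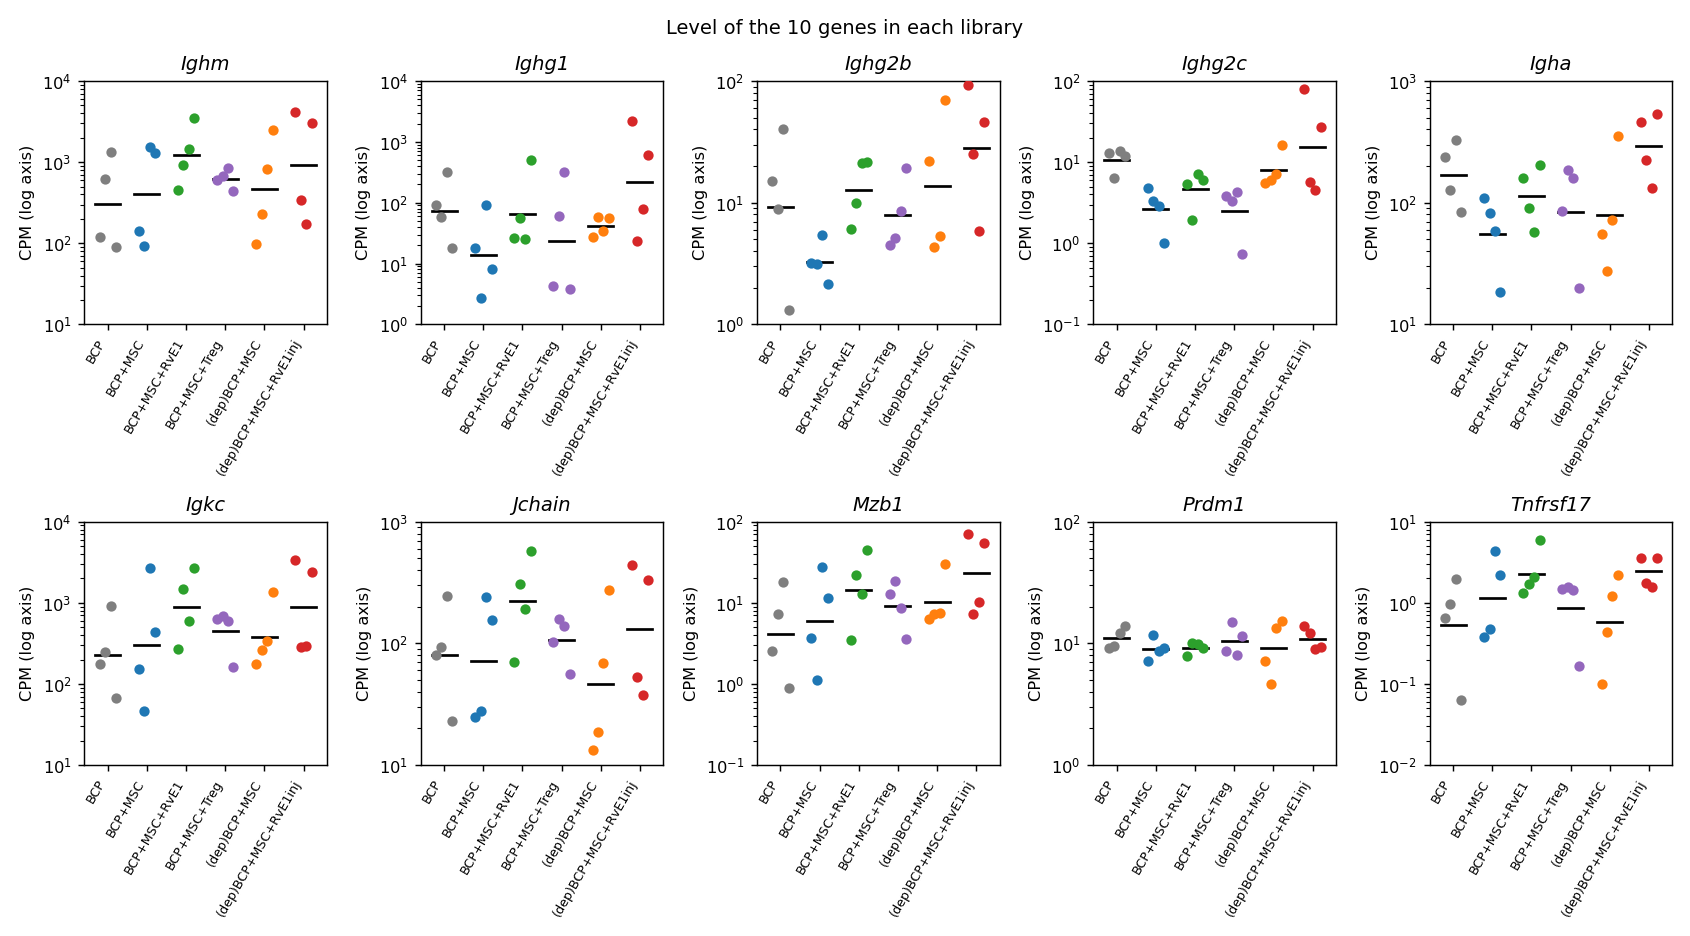
CPM of each of the 10 genes in every library (log axis), by group, with 1 point per mouse and a bar at the group's geometric mean. Points of 1 group spread widely for most genes, with Prdm1 between 4.67 and 15.4 CPM throughout. The 2 highest points of (dep)BCP+MSC+RvE1inj are replicates 1 and 4, except for Prdm1, where they are replicates 1 and 2.

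Ighm, the constant gene of IgM, was measured at 120, 614, 1345 and 91.1 CPM in BCP replicates 1 to 4 and at 142, 93.4, 1538 and 1299 CPM in BCP+MSC. In BCP+MSC+RvE1 it was at 451, 934, 1437 and 3536 CPM, and in BCP+MSC+Treg at 600.4, 682, 843 and 441 CPM. In (dep)BCP+MSC the 4 libraries gave 98.4, 230.1, 832 and 2514 CPM, and in (dep)BCP+MSC+RvE1inj 4137, 346, 173 and 3003 CPM. All 6 groups overlapped, with BCP+MSC+Treg the narrowest. Igkc, the constant region of most mouse light chains, followed the same libraries and ran from 46.0 CPM in BCP+MSC replicate 2 to 3335 CPM in (dep)BCP+MSC+RvE1inj replicate 1. Jchain, the peptide that links IgM and IgA into polymers, ran from 13.3 CPM in (dep)BCP+MSC replicate 1 to 576 CPM in BCP+MSC+RvE1 replicate 4. Mzb1, a chaperone of the endoplasmic reticulum for immunoglobulin chains, ran from 0.881 to 69.6 CPM, and Tnfrsf17, the receptor BCMA for plasma cell survival factors, from 0.0630 to 6.00 CPM. A difference among the 6 groups was tested for each gene in 1 F test. Before adjustment it passed for 2 of the 10 genes, Ighg2b (edgeR adjusted p = 0.195) and Ighg2c (edgeR adjusted p = 0.0202), where 20.4% of all genes passed. After adjustment 1 of the 10 passed, where 4.75% of all genes did. For Ighm, Igkc, Jchain, Mzb1, Prdm1 and Tnfrsf17 the differences between group levels were thus within the spread of the mice, whatever the order of the group means.

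The addition of MSC to the granules went with lower levels of the IgG2 subclass genes. Ighg2c, the C57BL/6 gene of IgG2c, was at 12.95, 6.40, 13.55 and 11.9 CPM in BCP and at 4.80, 3.36, 2.90 and 1.01 CPM in BCP+MSC. Every BCP library was above every BCP+MSC library. The log2 fold change was -1.89 ± 0.72 (p = 0.0160, adjusted p = 0.888, exact permutation p = 0.0286, the smallest that 4 against 4 mice allow), and it stayed past the threshold with each of the 8 mice left out in turn. Ighg2b was at 15.05, 8.86, 40.03 and 1.32 CPM in BCP and at 3.19, 3.11, 5.46 and 2.14 CPM in BCP+MSC (log2 fold change -2.24 ± 0.96, p = 0.0314, adjusted p = 0.888, exact permutation p = 0.2). These groups overlapped through BCP replicate 4, which was the lowest of all 8, and the call was lost without BCP replicate 3 or without BCP+MSC replicate 1, 2 or 4, with log2 fold changes between -2.62 and -1.28 over the mice left out. With sex as a covariate the estimate for Ighg2b was -1.84 ± 1.05 and no longer passed. So 2 of the 10 genes were past the threshold, both lower, where 4.32% of all genes were called, and none passed after adjustment by edgeR or by DESeq2 on all samples, whereas DESeq2 on the 2 groups passed Ighg2c. Igha, the IgA constant gene, was at 238, 126, 326 and 84.6 CPM in BCP and at 109, 81.9, 58.2 and 18.5 CPM in BCP+MSC and missed the threshold (-1.53 ± 0.78, p = 0.0627, exact permutation p = 0.0571). It was past the threshold, lower as well, in DESeq2 on all samples and in the fits of the 2 groups by edgeR and DESeq2, so that each of these called 3 of the 10 genes. Ighg1, the gene of the most abundant IgG in many mouse responses, gave -2.0 ± 1.51 (edgeR adjusted p = 0.915), and Ighm, Igkc, Jchain, Mzb1 and Tnfrsf17 gave estimates between 0.03 and 1.22 that did not pass. Over the 10 genes the median log2 fold change was -0.13, beside 0.06 over all genes tested.

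Priming with RvE1 or with Treg was compared with both controls, which the comparisons share. In BCP+MSC+RvE1 against BCP, 0 of the 10 genes passed in edgeR, also at an unadjusted p under 0.05, and 1 in DESeq2 on all samples (Tnfrsf17), where 8.54% of all genes were called. The estimate for Tnfrsf17 was 1.55 ± 0.84 (edgeR adjusted p = 0.355), from 0.642, 0.969, 1.97 and 0.0630 CPM in BCP and 1.32, 1.68, 2.08 and 6.00 CPM in BCP+MSC+RvE1. The groups overlapped in this gene through BCP replicate 3. Against BCP+MSC, 1 of the 10 genes was past the threshold, where 2.5% of all genes were called. This was Ighg2b, at 6.05, 9.87, 21.1 and 21.5 CPM in BCP+MSC+RvE1, with every library above every one of BCP+MSC (log2 fold change 2.08 ± 0.96, p = 0.0434, adjusted p = 0.924, exact permutation p = 0.0286). The call was lost in 5 of the 8 fits with 1 mouse left out (BCP+MSC replicate 1, 2 or 4, or BCP+MSC+RvE1 replicate 3 or 4), with estimates between 1.83 and 2.38, and also with sex as a covariate (1.5 ± 1.18). All 10 genes had an estimate above 0 in this comparison, with a median of 0.93 beside -0.04 for all genes. Among them Jchain gave 1.35 ± 1.02 and Ighm 1.05 ± 1.14 (edgeR adjusted p = 0.924 each), so none of the others was larger than the spread between mice.

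In BCP+MSC+Treg against BCP, 1 of the 10 genes passed, where 5.85% of all genes were called. Ighg2c was at 3.80, 3.30, 4.25 and 0.740 CPM in BCP+MSC+Treg, below every BCP library (log2 fold change -1.86 ± 0.72, p = 0.0178, adjusted p = 0.614, exact permutation p = 0.0286). The call was lost without BCP+MSC+Treg replicate 4 (adjusted p of this comparison over all alternatives 0.0606 to 0.937). Against BCP+MSC, 0 of the 10 passed in edgeR (0 at an unadjusted p under 0.05) and 0 in DESeq2 on all samples, where 2.56% of all genes were called. Against BCP+MSC+RvE1 the counts were again 0 and 0, where 2.22% of all genes were called, and 9 of the 10 estimates were below 0, among them Jchain at -1.34 ± 1.02 and Ighm at -1.31 ± 1.15 (edgeR adjusted p = 1 each). Ighg2c thus had its lowest means, 3.02 CPM each, in BCP+MSC and BCP+MSC+Treg, followed by 5.16 CPM in BCP+MSC+RvE1, 8.71 CPM in (dep)BCP+MSC, 11.2 CPM in BCP and 29.3 CPM in (dep)BCP+MSC+RvE1inj. Neighbours in this order overlapped, and the first 3 groups did not differ beyond their spread (exact permutation p = 0.857 and 0.343 between neighbours).

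In mice given toxin, 2 of the 10 genes, Ighg2b and Ighg2c, were past the threshold against BCP+MSC of the first experiment, where 13.2% of all genes were called, and both calls were lost without 1 library. Ighg2b was at 22.1, 4.29, 5.32 and 70.4 CPM in (dep)BCP+MSC (log2 fold change 2.88 ± 0.99 against BCP+MSC, p = 0.00891, adjusted p = 0.109, exact permutation p = 0.0857). The highest value was from the library in column 5 of the count table, and the 2 lowest were within the BCP+MSC range of 2.14 to 5.46 CPM. Without that library the estimate was 1.55 and no longer passed. Ighg2c was at 5.58, 6.07, 7.15 and 16.0 CPM, above every BCP+MSC library (1.54 ± 0.72, p = 0.0434, adjusted p = 0.23, exact permutation p = 0.0286), and its call was lost without the column 5 library or without BCP+MSC replicate 2, 3 or 4 (lowest estimate 1.06), and with sex as a covariate (1.66 ± 0.81). After adjustment 0 of the 10 passed in edgeR, 1 in DESeq2 on all samples (Ighg2b) and 2 in DESeq2 on the 2 groups, where 3.14% of all genes passed in edgeR. Ighg3, whose sequence overlaps that of Ighg2b, was abundant in replicates 1 and 2 of (dep)BCP+MSC, as given with the isotype shares, and its part in the Ighg2b counts was not tested. Ighm, Igkc, Jchain, Mzb1, Prdm1 and Tnfrsf17 lay between -0.84 and 0.26 and did not pass.

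With RvE1 injection in toxin-treated mice, Ighg1, Ighg2b, Ighg2c and Igha reached their highest levels, in part of the mice. The same held for Ighm, Igkc and Mzb1, so these peaks were not limited to the switched classes. Jchain and Tnfrsf17 were highest in BCP+MSC+RvE1 replicate 4, and Ighg3 in BCP+MSC replicate 3 (832 CPM). Ighg1 was at 27.7, 57.9, 34.7 and 55.4 CPM in (dep)BCP+MSC and at 2184, 23.6, 78.0 and 605 CPM in (dep)BCP+MSC+RvE1inj. Replicates 1 and 4 were above every (dep)BCP+MSC library, replicate 3 was slightly above and replicate 2 below. The log2 fold change was 4.04 ± 1.65 (p = 0.0242, adjusted p = 0.668, exact permutation p = 0.229). Ighg2c was at 79.6, 5.71, 4.48 and 27.4 CPM with injection, again with replicates 1 and 4 high and the others within or below the (dep)BCP+MSC range (1.75 ± 0.72, p = 0.0236, adjusted p = 0.668, exact permutation p = 0.4). Igha, at 54.8, 27.3, 72.2 and 351 CPM without and 463, 226, 133 and 537 CPM with injection, missed the threshold (1.43 ± 0.77, exact permutation p = 0.0857). In this comparison 2 of the 10 genes passed and 0 after adjustment, where 5.13% of all genes were called. DESeq2 on all samples called 3, Igha among them, and also 0 after adjustment. All 10 estimates were above 0, with a median of 1.39 beside 0.00 for all genes.

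Replicates 1 and 4 of (dep)BCP+MSC+RvE1inj had the highest immunoglobulin share of all 24 libraries, and replicate 4 was 1 of the 7 with under 20000000 counts. With both left out, 0 of the 10 genes passed, the median of the 10 estimates was -0.65, and Ighg2c was at -0.78. The 2 libraries were picked by their immunoglobulin level and both are from the higher group, so that lower estimates without them follow from the choice and are no test. The call of Ighg1 was lost without (dep)BCP+MSC replicate 1, the column 4 library or (dep)BCP+MSC+RvE1inj replicate 1 (estimates between 2.47 and 4.44), and that of Ighg2c without (dep)BCP+MSC replicate 1 or 2, the column 4 library or (dep)BCP+MSC+RvE1inj replicate 1 (0.55 to 2.24). With sex as a covariate Ighg1 gave 3.83 ± 1.89 and no longer passed. The test of whether the change with RvE1 differed between injection in toxin-treated mice and priming in the first experiment found 0 of the 10 genes, where 4% of all genes were called. The largest such difference was 1.74 ± 2.07 for Ighg1 (edgeR adjusted p = 1).

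The widest contrast was between (dep)BCP+MSC+RvE1inj and BCP+MSC, which differ in toxin, injection and experiment at once. Of the 10 genes 4 passed, all higher, where 9.45% of all genes were called, and 1 passed after adjustment, where 0.661% of all genes did. DESeq2 called 5 on all samples, with Mzb1 in addition, and 4 on the 2 groups, and in both fits Ighg1, Ighg2b, Ighg2c and Igha passed after adjustment, whereas edgeR on the 2 groups called the same 4 and passed 0 after adjustment. Ighg2c gave 3.29 ± 0.76 (p = 0.000306, adjusted p = 0.0465, exact permutation p = 0.0571), with only replicate 3 of the injected mice inside the BCP+MSC range. Its adjusted p was under 0.05 in 9 of 21 alternatives and ran from 0.000118 to 0.612. Ighg2b was at 92.9, 25.2, 5.82 and 46.3 CPM with injection, above every BCP+MSC library (3.62 ± 1.02, p = 0.00212, adjusted p = 0.113, exact permutation p = 0.0286). Igha was above every BCP+MSC library as well (2.34 ± 0.80, p = 0.00823, adjusted p = 0.195, exact permutation p = 0.0286). Ighg1 overlapped BCP+MSC (4.56 ± 1.69, p = 0.0143, adjusted p = 0.237, exact permutation p = 0.0857) and lost its call without (dep)BCP+MSC+RvE1inj replicate 1, where the estimate was 3.00. With replicates 1 and 4 both left out, a choice made by the same level, 0 of the 10 passed and the median of the 10 estimates was 0.0495 in place of 1.5. Ighg2b then gave 2.19 and Igha 1.45. With sex as a covariate the calls of Ighg1 (4.19 ± 2.14) and Igha (1.98 ± 1.01) were lost.

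**Figure D2:**
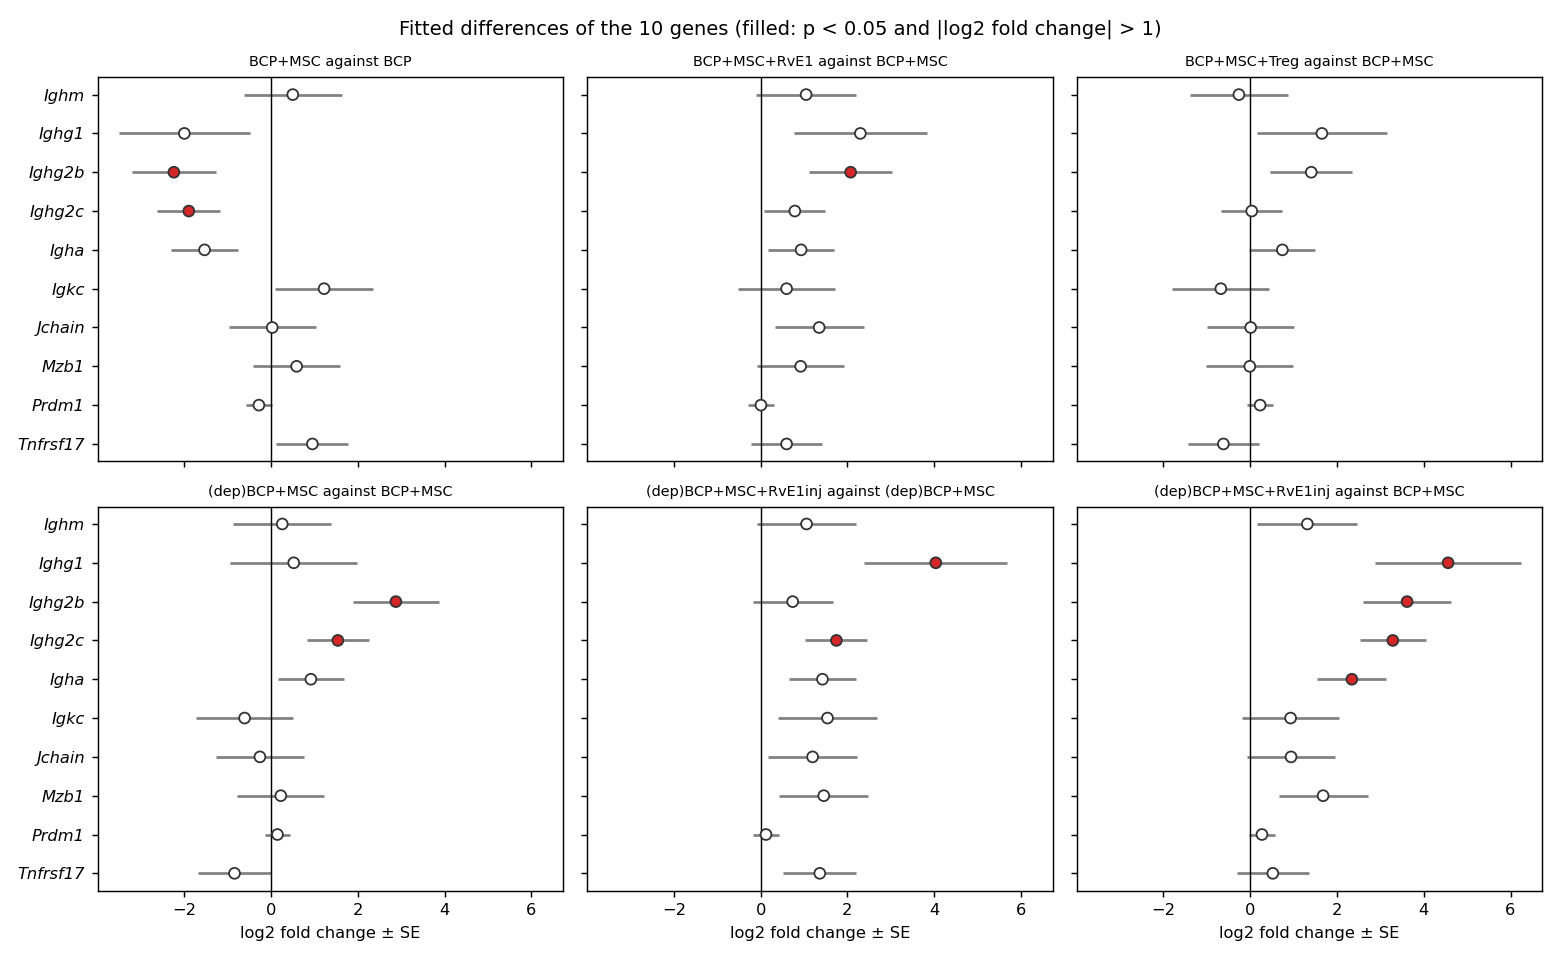
Log2 fold change (horizontal axis) of the 10 genes in 6 comparisons, with bars of 1 standard error, filled points for genes past the threshold and open points for the others. Filled points lie below 0 for Ighg2b and Ighg2c in BCP+MSC against BCP and above 0 for Ighg1, Ighg2b, Ighg2c and Igha in (dep)BCP+MSC+RvE1inj against BCP+MSC.

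The isotype mix was compared as the share of each gene in the summed counts of 8 heavy chain constant genes, a ratio within a library. Ighm held 21.5% to 97.0% of these counts. Its mean share was 52.1% ± 22.4 (SD, n = 4) in BCP and 81.9% ± 9.06 in BCP+MSC+RvE1, which missed the exact test (exact permutation p = 0.0571). Igha reached 49.7% in BCP replicate 1. Ighg1 held 12.5% ± 5.74 in BCP and 2.93% ± 2.42 in BCP+MSC, and every BCP mouse was above every BCP+MSC mouse (exact permutation p = 0.0286, adjusted p = 0.694 over 81 tests of shares). Ighg2c held 2.45% ± 2.34 in BCP and 0.322% ± 0.131 in BCP+MSC+Treg, also without overlap (exact permutation p = 0.0286, adjusted p = 0.694). Kappa made up 78.3% to 98.97% of light chain constant counts, with no group apart from the others.

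The constant genes outside the 10 showed where single mice differed most. Ighg3, the IgG3 gene, held 53.7% (95% exact binomial interval 52.2 to 55.1) and 47.3% (46.7 to 47.9) of the heavy chain counts in (dep)BCP+MSC replicates 1 and 2, but 0.978% and 1.22% in the column 4 and column 5 libraries. It held 32.8% in BCP+MSC replicate 3 and at most 0.653% in the BCP mice, where replicate 1 had 0 of 8190 counts, which allows a share of up to 0.0366%. Ighg3 was past the threshold in BCP+MSC against BCP (5.86 ± 2.59, edgeR adjusted p = 0.888), with 1 BCP library at 0. Ighe, the IgE gene, was at 86.2, 6.02, 12.5 and 72.4 CPM in (dep)BCP+MSC+RvE1inj and at 0.164, 0, 3.59 and 0.238 CPM in BCP+MSC. All 4 injected mice were above all BCP+MSC mice in level (5.46 ± 1.86, p = 0.00855, adjusted p = 0.198) and in share (1.70% ± 0.934 against 0.0533% ± 0.0629, exact permutation p = 0.0286, adjusted p = 0.694). The limit of 3 counts in BCP+MSC replicate 2 was 0.0244% of its heavy chain counts. In (dep)BCP+MSC, Ighe was at 2.09, 9.52, 1.78 and 1.18 CPM and overlapped the injected mice (3.59 ± 1.70 with injection against without, edgeR adjusted p = 0.668). BCP replicate 3 was at 13.9 CPM.

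**Figure D3:**
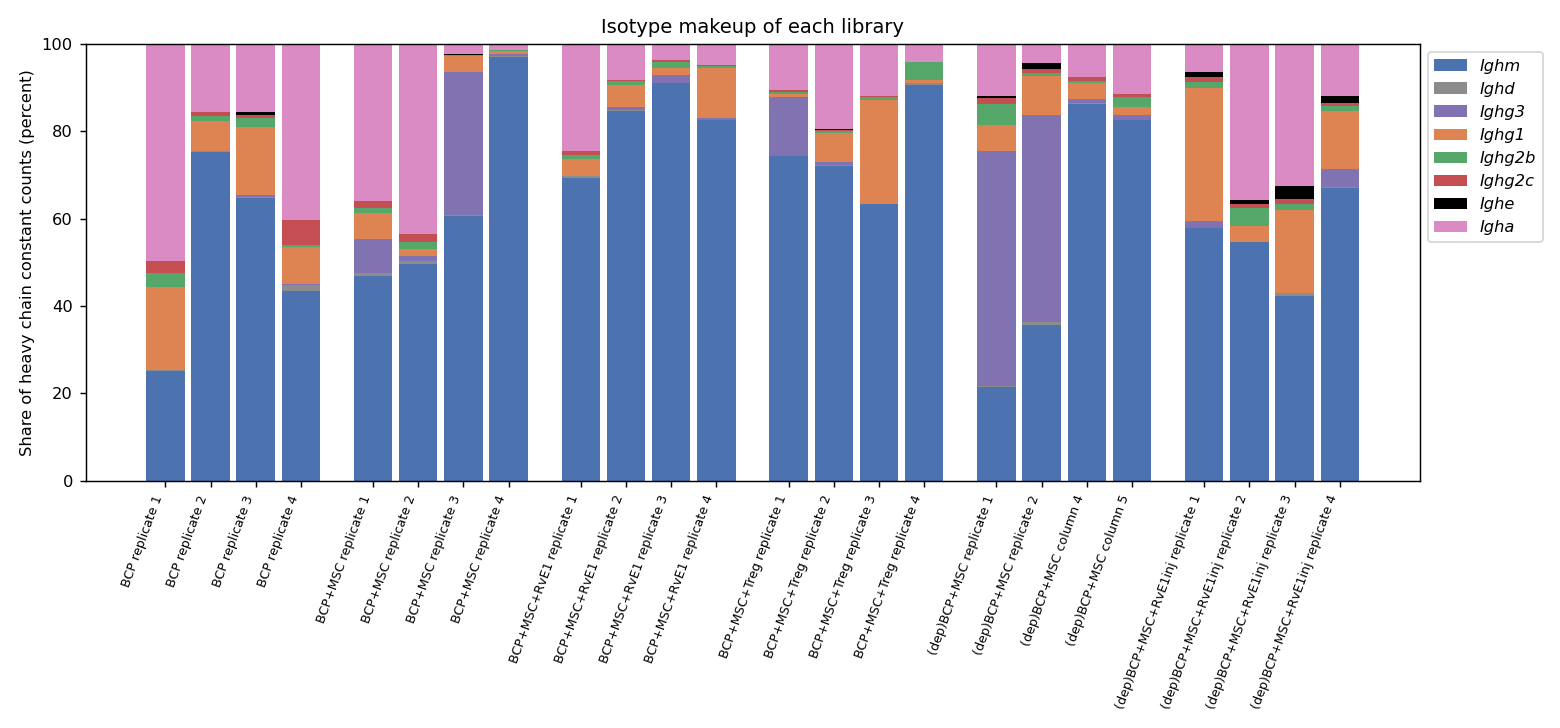
Share (%) of each heavy chain constant gene in the summed heavy chain constant counts of each library, as stacked bars from 0 to 100, with the libraries ordered by group. Ighm fills most bars, Ighg3 fills 53.7% and 47.3% of the first 2 (dep)BCP+MSC bars, and Ighg1 is larger in the BCP bars than in the BCP+MSC bars.

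Jchain served as a common axis for the spread between mice, since it is a single gene without near copies. Over the 24 libraries its log2 CPM followed that of Ighm (Pearson r = 0.92, Spearman rho = 0.92), Igkc (0.88 and 0.89), Tnfrsf17 (0.85 and 0.87) and Mzb1 (0.81 and 0.86), each with a permutation p of 1e-05, the smallest that 100000 permutations give, and 2.25e-05 adjusted over the 9 relations. The relation was looser for Ighg1 (0.59 and 0.58, permutation p = 0.00243 and 0.00352, adjusted 0.00437 and 0.00634), Ighg2b (0.53 and 0.53, permutation p = 0.00861 and 0.00956, adjusted 0.0129 and 0.0143) and Igha (0.46 and 0.51, permutation p = 0.022 and 0.0118, adjusted 0.0283 and 0.0152). It was not detected for Prdm1 (0.36 and 0.33, permutation p = 0.0859 and 0.118, adjusted 0.0966 and 0.132) or Ighg2c (0.25 and 0.20, permutation p = 0.25 and 0.337, adjusted 0.25 and 0.337). Without (dep)BCP+MSC replicate 1 and BCP+MSC+RvE1 replicate 4, the 2 libraries farthest from the median of Jchain, r was 0.90 for Ighm, 0.89 for Igkc, 0.83 for Mzb1, 0.79 for Tnfrsf17, 0.57 for Ighg1, 0.64 for Ighg2b, 0.42 for Igha, 0.34 for Prdm1 and 0.28 for Ighg2c. As deviations from the group means, r was 0.95 for Ighm, 0.92 for Igkc, 0.90 for Mzb1, 0.87 for Tnfrsf17 and 0.41 for Ighg2c. So the tight relations also held among mice of the same group.

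Within the 16 mice without toxin and the 8 with toxin, r of Ighm with Jchain was 0.92 and 0.97, and that of Igkc 0.94 and 0.96. For Ighg2c it was -0.06 and 0.87, for Igha 0.18 and 0.90 and for Prdm1 -0.07 and 0.70. The difference between the experiments was not tested. Among 14685 other genes, those whose level over the 24 libraries was most like that of Jchain, by Spearman rho as a description, included Iglc2 (0.87), Iglc3 (0.85), Pou2af1 (0.85), Hspa14 (0.85), Fcrla (0.84), Iglc1 (0.84), Bhlha15 (0.83), St3gal4 (0.82) and Ly6c2 (0.82). B lineage genes are among them, such as the lambda constant genes Iglc1 to Iglc3, the B cell coactivator Pou2af1 and the secretory cell factor Bhlha15. Xbp1 (rank 123, rho 0.65), Sdc1 (rank 1927, rho 0.43) and Irf4 (rank 2012, rho 0.42) followed Jchain less closely than these. The rho of Xbp1 was above that of Ighg1 (0.58), Ighg2b (0.53) and Igha (0.51). Sdc1, Xbp1 and Irf4, often used as plasma cell markers, were at 126 to 425, 183 to 357 and 18.6 to 44.8 CPM in all libraries, also where Jchain was lowest.

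**Figure D4:**
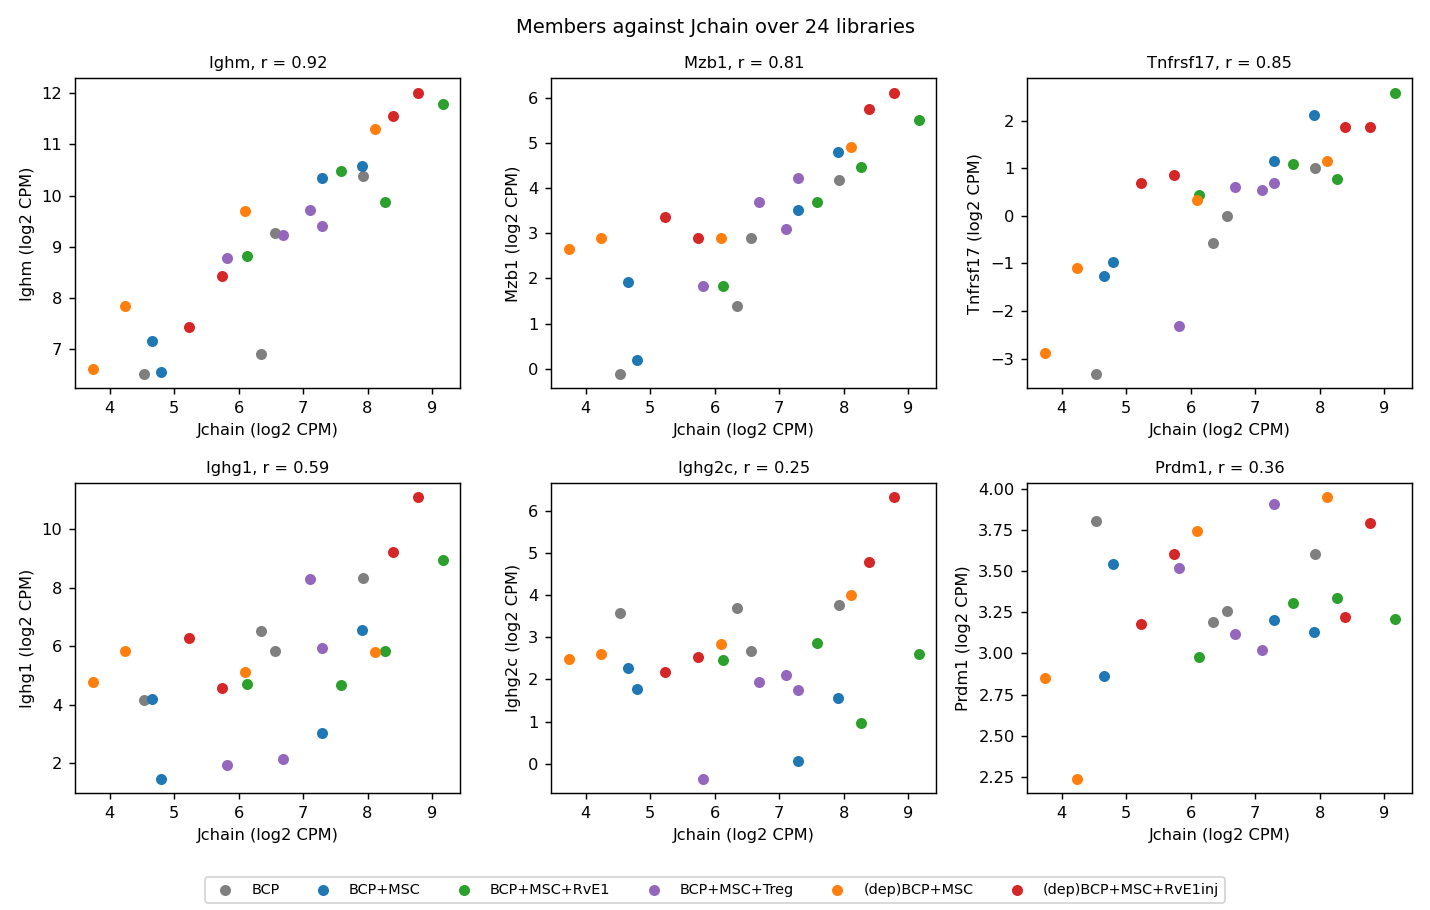
Log2 CPM of Ighm, Mzb1, Tnfrsf17, Ighg1, Ighg2c and Prdm1 against log2 CPM of Jchain, 1 point per library, coloured by group. Ighm (r = 0.92) and Tnfrsf17 (r = 0.85) rise along Jchain over all groups, whereas Ighg2c (r = 0.25) and Prdm1 (r = 0.36) scatter.

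Genes of the wider B lineage were counted in lists, given as higher and lower past the threshold. These counts stand beside the shares of all genes called given above, which were 13.2% in (dep)BCP+MSC against BCP+MSC, 9.45% in (dep)BCP+MSC+RvE1inj against BCP+MSC and 5.13% in (dep)BCP+MSC+RvE1inj against (dep)BCP+MSC. Of 33 tested genes for the plasma cell program and secretion, 1 was higher and 7 were lower in (dep)BCP+MSC than in BCP+MSC (3 after adjustment), which included higher Cd38 (1.90 ± 0.27), a surface enzyme of many immune cells, and lower Fkbp11 (-1.69 ± 0.39), Pdia6 (-1.11 ± 0.31) and Sdf2l1 (-1.26 ± 0.38), folding factors of the endoplasmic reticulum in any secreting cell. In (dep)BCP+MSC+RvE1inj against BCP+MSC 2 were higher and 3 lower (1 after adjustment), with Cd38 at 1.61 ± 0.27. In BCP+MSC+RvE1 against BCP 1 was higher (Eaf2, 1.13 ± 0.55), and in the other 6 comparisons and in the test of the RvE1 difference 0 passed. The median of the list was -0.35 in (dep)BCP+MSC against BCP+MSC, beside -0.04 for all genes.

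Of the 20 B cell identity genes, 3 were lower in (dep)BCP+MSC than in BCP+MSC (2 after adjustment), a count near the 13.2% of all genes called, with Bank1 at -2.13 ± 0.52, Spib at -1.71 ± 0.45 and Ms4a1, which encodes CD20, at -1.86 ± 0.74. With RvE1 injection 9 of the 20 were higher than in (dep)BCP+MSC (0 after adjustment), with a median of 1.34 beside 0.00 for all genes. Ms4a1 gave 2.70 ± 0.76, Cd79b, a signalling chain of the B cell receptor, 1.67 ± 0.47, Spib 1.51 ± 0.45 and the kinase Blk 2.30 ± 0.75. Their summed level was 180 to 292 CPM in (dep)BCP+MSC and 224 to 361 CPM in (dep)BCP+MSC+RvE1inj, so the groups overlapped. In the test of injection against priming 5 of the 20 were past the unadjusted threshold, all higher, where 4% of all genes were called, and 0 passed after adjustment. Among the 5 were Ms4a1 (2.98 ± 1.03) and Blk (2.76 ± 1.02). In (dep)BCP+MSC+RvE1inj against BCP+MSC 1 was higher and 1 lower, and in BCP+MSC+Treg against BCP 1 was lower.

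Of 10 T cell markers, 9 were higher in (dep)BCP+MSC+RvE1inj than in BCP+MSC (3 after adjustment), among them Cd4 (1.42 ± 0.31), Cd8b1 (2.98 ± 0.68), Lck (1.58 ± 0.37) and Trac (1.80 ± 0.46). Their summed level was 127 to 175 CPM with injection, against 29.3 to 61.7 CPM in BCP+MSC, and these groups did not overlap. Ighg1, Ighg2b, Ighg2c and Igha were higher in the same comparison. Cd3e of this list was at 11.6, 10.2, 3.51 and 8.41 CPM in injected replicates 1 to 4, and Ighg1 at 2184, 23.6, 78.0 and 605 CPM. Ighg2b was at 92.9, 25.2, 5.82 and 46.3 CPM and Ighg2c at 79.6, 5.71, 4.48 and 27.4 CPM. Both were highest in replicate 1 and lowest in replicate 3, as Cd3e was. Igha was highest in replicate 4 and lowest in replicate 3, and Ighg1 was lowest in replicate 2. The part of T cells in the result was not tested. Skin and gland epithelium markers summed to 1.51 to 761 CPM over the libraries, and Lor, Krt1 and Krt10 were higher in (dep)BCP+MSC than in BCP+MSC (3 of 8, all after adjustment) and lower with injection. These calls came from (dep)BCP+MSC replicate 1, which held Lor at 46.8, Krt1 at 10.1 and Krt10 at 133 CPM, whereas the other 3 libraries of the group were at most at 0.0420, 0.0964 and 2.07 CPM. Without it the estimates against BCP+MSC were 0.48, 1.00 and -0.30 and none passed, and none passed with injection either. Krt18, Krt8 and Epcam of this list were not called. Their means were 20.9, 26.4 and 10.4 CPM in BCP+MSC, 123, 96.1 and 57.5 CPM in (dep)BCP+MSC and 156, 154 and 75.4 CPM with injection. Krt18 was above every BCP+MSC library in every (dep)BCP+MSC library, and ranged from 1.57 to 260 CPM with injection. Krt14 means were 3.42, 14.8 and 10.5 CPM in the same order. Of 8 macrophage markers 0 passed the threshold in edgeR in any comparison. Of 8 skeletal muscle markers 2 were higher in BCP+MSC+RvE1 than in BCP, and Myh1 was higher in (dep)BCP+MSC than in BCP+MSC and lower with injection. Of 9 markers of plasmacytoid dendritic cells, which share several B lineage genes, 2 were lower in each toxin-treated group than in BCP+MSC. Siglech was among them in both (-2.73 ± 0.74 and -2.47 ± 0.73, edgeR adjusted p = 0.0377 and 0.118). Bst2 of this list was higher with injection than without (1.19 ± 0.51, edgeR adjusted p = 0.668). Of 9 tested lymph node stroma and vessel markers 2 were higher in each toxin-treated group than in BCP+MSC. In (dep)BCP+MSC these were Cxcl13, given below, and Glycam1 (2.47 ± 1.15, edgeR adjusted p = 0.229). In (dep)BCP+MSC+RvE1inj they were Cxcl13 and Clu (1.21 ± 0.44, edgeR adjusted p = 0.223). Glycam1 was lower with injection than without (-2.82 ± 1.17). Ccl19 and Ccl21a of this list were at most 0.224 and 0.263 CPM in every library. The part of lymph node tissue in the result was not tested.

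Among 14 survival and homing factors of plasma cells, 1 was lower in BCP+MSC than in BCP (Il6, -2.15 ± 0.82, edgeR adjusted p = 0.888). In BCP+MSC+Treg against BCP 2 were lower, Il6 (-2.75 ± 0.84) and Ccl28 (-1.57 ± 0.72), and 1 was higher, Cxcl10 (1.18 ± 0.50, edgeR adjusted p = 0.614 each). Cxcl13, the chemokine that draws B cells, was higher than in BCP+MSC in both toxin-treated groups. The estimates were 3.98 ± 0.89 in (dep)BCP+MSC (edgeR adjusted p = 0.0158) and 3.44 ± 0.87 in (dep)BCP+MSC+RvE1inj (edgeR adjusted p = 0.0757). Its mean went from 3.95 CPM to 62.7 and 42.9 CPM. Of 19 class switch cytokines and receptors 4 were higher in (dep)BCP+MSC+RvE1inj than in BCP+MSC: Ifng (3.24 ± 0.98), Cd40lg (2.81 ± 1.00), Il10 (1.49 ± 0.55) and Tbx21 (1.29 ± 0.50), the factor of type 1 helper T cells. None of them passed after adjustment. Ifng (2.10 ± 0.95) and Cd40lg (2.09 ± 0.98) were also past the threshold in (dep)BCP+MSC against BCP+MSC, without injection. There 1 gene of the list was lower, Il21r (-1.25 ± 0.47). These 3 missed adjustment as well (edgeR adjusted p = 0.213, 0.229 and 0.139). With injection against without, 1 of the list was called, Tbx21 (1.35 ± 0.50, edgeR adjusted p = 0.668). Of 12 immunoglobulin receptors 3 were higher in each toxin-treated group than in BCP+MSC, namely Fcer1a (2.64 ± 0.55 and 2.49 ± 0.54) and Ms4a2, chains of the IgE receptor of mast cells and basophils, and Pigr, which carries IgA and IgM across epithelia. Fcmr, the IgM receptor, was lower in (dep)BCP+MSC than in BCP+MSC (-2.18 ± 0.95, edgeR adjusted p = 0.192), with means of 0.0696 and 0.364 CPM. Against this low level it was higher with injection than without (3.27 ± 0.97, edgeR adjusted p = 0.668), at a mean of 0.779 CPM. Of 10 germinal centre genes at most 1 passed in any comparison. Mybl1 was lower in BCP+MSC+RvE1 than in BCP (-2.09 ± 0.48) or BCP+MSC (-1.98 ± 0.48) and higher with Treg than with RvE1 priming, and Il21r was lower in (dep)BCP+MSC than in BCP+MSC.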

How the data were processed

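RNA of whole implants was sequenced from stranded mRNA libraries. Per the submitters' processing notes and the file header, the authors aligned reads (HISAT2 2.0.5) and counted them per gene with featureCounts 1.5.2 and GENCODE M13. The deposited values are raw counts per gene, with no strand option, so antisense and overlapping transcripts, and near-identical copies, are uncertain. The counting command in the file header names 4 more alignment files, labelled RVE, than the table has columns, and these were not analysed here; the columns labelled R were taken as BCP+MSC+RvE1 because the series' own list of abbreviations gives R for that group. All 24 columns were used; the (dep)BCP+MSC columns are numbered 1, 2, 4 and 5, and columns 4 and 5 entered the group without a replicate number. Symbols and positions came from GENCODE M21 on GRCm38, which matched 50376 of 51138 identifiers, and the sequences from the same reference.

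The quasi-likelihood test of edgeR 4.0.16 (R 4.3.3) was run with TMM scaling and robust dispersions over all 6 groups, without covariates, on genes whose counts summed to at least 10, and p-values were adjusted by Benjamini-Hochberg over all genes. DESeq2 1.42.0 was an alternative, as were size factor scaling, stricter and no filters, covariates for sex (from Xist against Y-linked transcripts) and library size, fits of 2 groups, a replicate block and each mouse left out. Leaving out the 2 libraries of highest immunoglobulin share, or those under 20000000 counts, and refitting the samples of the block without it were chosen after seeing the data. Log2 CPM for exact permutation tests (70 arrangements of 4 against 4) and relations had a prior count of 2. Same-numbered mice of different groups did not deviate together (median r 0.0108 over 50 pairs, 0.1 exceeded in 19), so numbers were not taken as pairs. In counts simulated for (dep)BCP+MSC+RvE1inj against BCP+MSC (29665 genes, 200 changed), 92% of genes changed by 2 on the log2 scale and 100% of those changed by 4 passed the unadjusted threshold, 70% and 96% passed after adjustment, and 3.96% of unchanged genes passed unadjusted. These shares are over genes of all spreads, and most of the 10 genes vary more between mice than nearly all others.

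The 10 genes and the 13 lists were chosen with earlier results of these data known, and a list is described by its counts. Besides the 10 genes, the text names up to 4 genes of smallest p per list and comparison past the threshold, and the 10 genes most like Jchain, of which 9 are reported here. Sdc1, Xbp1, Irf4 and the defining markers of other cells are named by their lists.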

Additional observations from a re-analysis of the deposited data

Results flagged for a closer look

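In 60 sets of 4 libraries (10 genes in 6 groups), 1 library stood apart from the other 3 of its group in 4 sets, where chance alone gives about 3. These values are the gap to the nearest library as a fraction of the range, compared with Dixon's 95% critical value for 4 samples. In BCP+MSC+Treg replicate 4, a library of 10567666 counts, Ighg2c (0.854), Igkc (0.911) and Tnfrsf17 (0.951) were far below the other 3 mice, at 0.740, 159.8 and 0.164 CPM. In the column 5 library of (dep)BCP+MSC, Mzb1 was far above the others (0.891), at 30.3 CPM.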

How the results depend on the processing

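Of 1890 values of the 10 genes under the alternatives, 1796 kept their direction and side of the threshold or lay below it in both, 43 lost and 50 gained a call, and 1 turned: Ighg2c in (dep)BCP+MSC+RvE1inj against (dep)BCP+MSC, -0.78 with the 2 libraries of highest immunoglobulin share left out. That setting, which lowers the estimates by its choice of libraries, left 0 called and a median of -0.65 there, 0 and 0.0495 in (dep)BCP+MSC+RvE1inj against BCP+MSC, and 1 in BCP+MSC+RvE1 against BCP. Leaving out libraries under 20000000 counts gave 0 in BCP+MSC+Treg against BCP and 1 in (dep)BCP+MSC+RvE1inj against (dep)BCP+MSC. With sex as a covariate 1 was called in BCP+MSC against BCP, 0 in BCP+MSC+RvE1 against BCP+MSC, 1 in (dep)BCP+MSC against BCP+MSC, 1 in (dep)BCP+MSC+RvE1inj against (dep)BCP+MSC and 2 against BCP+MSC. In BCP+MSC+RvE1 against BCP the library size covariate, DESeq2 on all samples and edgeR on the 2 groups gave 1 each and DESeq2 on the 2 groups 4. The fits of 2 groups (edgeR, DESeq2) gave 1 and 1 in BCP+MSC+Treg against BCP+MSC, 2 and 2 against BCP+MSC+RvE1, and 1 and 5 in (dep)BCP+MSC+RvE1inj against (dep)BCP+MSC. The cause of these changes was not tested.

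The replicate numbers did not pair the mice. With a replicate block, which drops the column 4 and 5 libraries, 0 were called in (dep)BCP+MSC against BCP+MSC and 4 in (dep)BCP+MSC+RvE1inj against (dep)BCP+MSC (median 2.81), and the same samples without the block gave 5 there (median 2.97). The block gave 4 in (dep)BCP+MSC+RvE1inj against BCP+MSC, 3 in BCP+MSC against BCP, 1 in BCP+MSC+Treg against BCP and in BCP+MSC+RvE1 against BCP+MSC, and 0 in the other 3 comparisons.

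With 1 mouse left out, 1 to 3 genes were called in BCP+MSC against BCP (median estimate -0.70 to 0.27), 0 to 3 in BCP+MSC+RvE1 against BCP (0.26 to 1.78) and against BCP+MSC (0.26 to 1.79), 0 to 1 in BCP+MSC+Treg against BCP (-0.20 to 0.79), 0 to 0 against BCP+MSC (-0.13 to 0.69) and against BCP+MSC+RvE1 (-1.14 to -0.46), 0 to 2 in (dep)BCP+MSC against BCP+MSC (-0.53 to 1.05), 0 to 6 in (dep)BCP+MSC+RvE1inj against (dep)BCP+MSC (0.76 to 2.32) and 3 to 6 against BCP+MSC (0.92 to 2.49). Other scaling and no filter left all 90 calls as they were. Over the other alternatives, counts of all genes called ran from 548 to 1529 in BCP+MSC against BCP (1320 as reported), 621 to 2908 in BCP+MSC+RvE1 against BCP (2610), 976 to 2010 in BCP+MSC+Treg against BCP (1789), 237 to 1054 in BCP+MSC+RvE1 against BCP+MSC (763), 182 to 970 in BCP+MSC+Treg against BCP+MSC (783), 162 to 868 against BCP+MSC+RvE1 (679), 2723 to 5340 in (dep)BCP+MSC against BCP+MSC (4029), 664 to 3081 in (dep)BCP+MSC+RvE1inj against (dep)BCP+MSC (1567) and 1469 to 3649 against BCP+MSC (2889), so the background shares move with the fit. Depth limits Tnfrsf17 most, with 3 counts or fewer in 3 libraries.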
